A study of Homo sapiens with 6 samples.

Results

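The genes described here are the synaptotagmins and the subunits of voltage-gated calcium channels that KM12 cells express. KM12 is an established line from a human colorectal carcinoma. Of 27134 genes in the expression table, 19 met the rule and are all described. They were chosen by name and level: a protein-coding gene whose symbol is SYT with a number, or begins with CACNA, CACNB or CACNG, and whose mean over the 6 libraries is at least 20 normalised counts, whichever group it is higher in. They are 7 synaptotagmins, 5 pore-forming calcium channel subunits, 1 alpha2delta subunit, 4 beta subunits and 2 gamma subunits. RNA was sequenced from 3 libraries of KM12 cells that overexpressed CDO1, the cysteine dioxygenase that oxidises cysteine to cysteine sulfinate, and from 3 libraries of mock control cells of the same line. All cells were at passages 10 to 15. How CDO1 was introduced and whether a line was 1 clone are not given in the labels. Nor do they say that replicates were grown apart, so each p-value is relative to a spread between libraries that may be only technical.

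Synaptotagmins are membrane-anchored proteins with a pair of C2 domains. In several of them the C2 domains bind calcium and then drive the SNARE-mediated fusion of vesicles with the plasma membrane. Voltage-gated calcium channels admit that calcium when a membrane depolarises: a pore-forming subunit carries the current, and alpha2delta and beta subunits bring the pore to the surface and tune its gating. Both families are best known from neurons, endocrine cells and muscle, and some members also serve membrane repair and constitutive traffic in epithelia.

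With CDO1, 10 of the 13 synaptotagmin, pore-forming and alpha2delta genes fell and none rose. The largest falls were those of the N-type channel pore CACNA1B (4.31-fold), the fast synaptic calcium sensor SYT1 (3.01-fold) and the T-type channel pore CACNA1H (2.92-fold). Among the beta and gamma subunit genes CACNB3 fell and CACNG4 and CACNG6 rose. Over all 19 genes, 11 fell, 2 rose and 6 did not pass an adjusted p of 0.05 in limma. In the same fit, 12.7% of the 21775 genes tested were lower and 11.3% higher in CDO1 libraries, 24.0% in either direction. Of the 12250 protein-coding genes that reach a mean of 20, 18.8% were lower and 18.1% higher, 36.9% in either direction. The members that fell by at least 1 on the log2 scale were 7 of 19, beside 4.52% of all genes tested and 5.13% of those protein-coding genes. By the log2 fold changes in the authors' deposited table, only SYT1, CACNA1H and CACNA1B did so, 3 of 19 beside 1.44% of its 27134 genes. The groups did not overlap in 15 of the 19, beside 37.1% and 50.3%. The median log2 fold change (CDO1 minus mock) was -0.32 over the 19 genes, 0.00 over all genes tested and 0.01 over the protein-coding genes. By edgeR the background was 18.4% lower and 17.3% higher of 15184 genes, and by DESeq2 14.8% and 13.8% of 15029. In the authors' deposited table the shares were 8.3% and 7.64% of all its 27134 genes, scarce ones included. The numbers lower and higher were alike, 2228 and 2068 by DESeq2 and 2252 and 2073 in that table, over a larger total. In the order edgeR, DESeq2 and authors' table, 11, 10 and 10 members were lower and 2, 1 and 1 higher. These counts are a description: the genes were chosen with results of these data known, and 3 of them (CACNA1A, SYT13 and CACNG6) have a mean under 20 in one group and met the rule through the higher one. In bulk RNA, fewer cells that express a gene and less of its RNA per cell cannot be told apart.

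**Figure D1:**
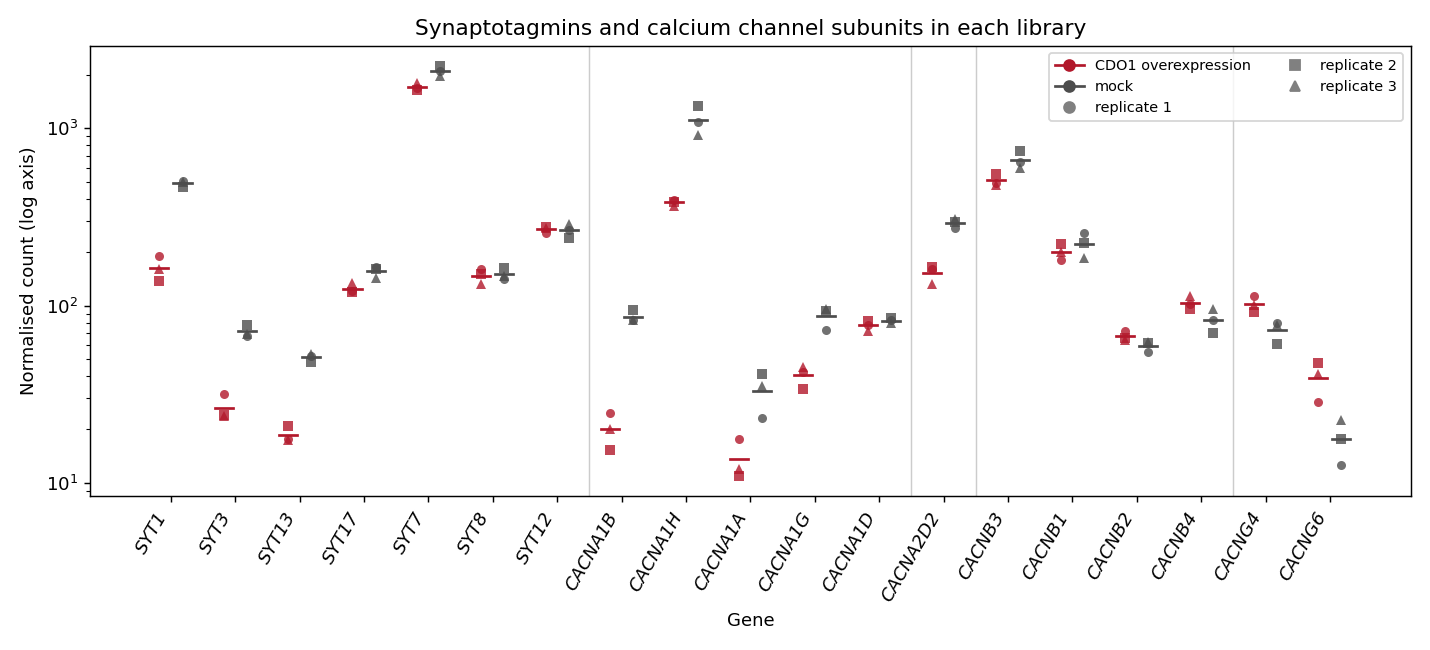
Normalised count (log axis) of the 19 genes in each library, with CDO1 overexpression in red, mock in grey, marker shapes for replicates 1 to 3 and lines at group means; vertical lines separate synaptotagmins, pore-forming, alpha2delta, beta and gamma subunits. SYT1 lies at 138 to 190 in CDO1 libraries and 465 to 507 in mock libraries, while SYT8 and SYT12 overlap between groups.

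Normalised counts are the reads of a gene divided by a size factor of its library, as the authors deposited them. Reads assigned to genes total 17516640 to 22198173 per library. CDO1 itself stood at 2333 to 2484 normalised counts in the CDO1 libraries, against 68.1 in mock replicate 1 (76 reads) and 0 in mock replicates 2 and 3. All 12 colorectal epithelial marker genes checked were measured, and their summed level was 196115 to 209894 in CDO1 libraries against 145564 to 153996 in mock libraries, with 10 rising. Of 15 neuroendocrine markers, 8 were measured, summing to 76.2 to 83.2 with CDO1 and 112 to 142 in mock, with 1 falling (NCAM1), and of 12 neuronal or glial markers 6, summing to 282 to 333 with CDO1 and 266 to 281 in mock, with MAP2 rising and SNAP25 falling. The vesicle protein SYP averaged 19.7 with CDO1 and 27.9 in mock and did not pass, and the gut hormone genes CCK and PYY were near 0 in both groups; markers without a row were not analysed here. Of 10 fibroblast or muscle markers 5 were measured (203 to 228 with CDO1, 281 to 372 in mock, with COL1A1 falling) and of 9 immune or endothelial markers 6 (53.2 to 85.4 with CDO1, 32.2 to 100.4 in mock, none passing). The part of these other cell types in the results below was not tested. The counts of markers rising or falling stand beside 11.3% higher and 12.7% lower of all genes tested. Among protein-coding genes that reach a mean of 20, the shares were 18.1% and 18.8%.

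The RefSeq promoter table on GRCh38.p14 has entries for 11 of the 19 genes. Over windows from 250 bases before to 50 after each start, GGGCGG, the GC box read by SP1-type factors, occurs on either strand at 1 or more starts of 10 of the 11, among them all 6 that fell, the 1 that rose and 3 of the 4 that did not pass. It occurs in 45% of all 35116 promoter windows of that length, and several starts per gene raise the count here. TATAAA was in none of the 11 genes (11.5% of all windows), nor was TTCAGCACC, one part of the element read by the neuronal repressor REST (0.376%), or the other part of that element (0.846%). Both strands were read in each search, and a lack of a match concerns only the letters of these windows. The 250 bases before the start are shown for a gene that fell most (CACNA1B), an auxiliary subunit that fell (CACNA2D2), a pore that did not pass (CACNA1D) and a gene that rose (CACNG6), chosen among starts whose upstream bases lie in no annotated exon. Each runs 5′ to 3′ on the strand of its gene, and capitals mark GGGCGG or its reverse complement. Adjoining matches share letters.
CACNA1B, fell, chr9:137877532-137877781, plus strand: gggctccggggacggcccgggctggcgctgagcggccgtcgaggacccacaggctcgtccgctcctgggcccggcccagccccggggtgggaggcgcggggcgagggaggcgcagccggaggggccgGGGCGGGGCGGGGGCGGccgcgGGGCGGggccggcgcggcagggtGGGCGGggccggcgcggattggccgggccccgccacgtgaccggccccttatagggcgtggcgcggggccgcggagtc
CACNA2D2, fell, chr3:50503635-50503884, minus strand: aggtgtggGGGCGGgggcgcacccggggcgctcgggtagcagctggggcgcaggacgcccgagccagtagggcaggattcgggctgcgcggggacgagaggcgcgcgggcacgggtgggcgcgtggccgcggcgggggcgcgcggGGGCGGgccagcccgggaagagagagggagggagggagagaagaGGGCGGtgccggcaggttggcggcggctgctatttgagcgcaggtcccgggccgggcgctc
CACNA1D, did not pass, chr3:53494361-53494610, plus strand: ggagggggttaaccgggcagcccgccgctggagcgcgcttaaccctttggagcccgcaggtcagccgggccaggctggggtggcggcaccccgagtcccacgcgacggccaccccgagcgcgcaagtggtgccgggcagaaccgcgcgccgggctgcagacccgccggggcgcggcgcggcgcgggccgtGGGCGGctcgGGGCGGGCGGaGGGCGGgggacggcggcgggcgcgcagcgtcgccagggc
CACNG6, rose, chr19:53991387-53991636, plus strand: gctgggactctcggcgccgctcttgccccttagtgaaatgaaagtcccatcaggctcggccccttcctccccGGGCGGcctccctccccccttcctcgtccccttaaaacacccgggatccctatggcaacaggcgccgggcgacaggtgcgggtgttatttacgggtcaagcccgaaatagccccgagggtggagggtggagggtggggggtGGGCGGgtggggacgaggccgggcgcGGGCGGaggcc
These 4 stretches hold 5, 3, 4 and 3 matches in that order. The GC content of the whole windows is 85.3% for CACNA1B, 77.3% for CACNA2D2, 83.0% for CACNA1D and 70.7% for CACNG6, against a median of 58.7% over all windows. A GC-rich start was thus found in genes that fell, rose and did not pass. The other start of CACNA2D2 holds no match.

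Among the synaptotagmins, SYT1, SYT3, SYT13, SYT17 and SYT7 fell and SYT8 and SYT12 did not pass. SYT1 (ENSG00000067715, GRCh38 chromosome 12, 78863993 to 79452008), the sensor of synchronous transmitter release, had 190, 138 and 160 normalised counts in CDO1 replicates 1 to 3, against 507, 465 and 499 in mock replicates 1 to 3. The highest CDO1 library lay far below the lowest mock library. Its log2 fold change was -1.60 ± 0.10 (SE; limma, adjusted p = 5.20e-10). SYT3 (ENSG00000213023, chromosome 19, 50621307 to 50639827), a calcium sensor that in rodent neurons acts in receptor endocytosis, had 31.6, 24.1 and 23.9 with CDO1, against 67.2, 78.0 and 69.0 in mock. It fell 2.69-fold, with a log2 fold change of -1.41 ± 0.20 (SE; limma, adjusted p = 1.65e-05), and the groups lay apart. SYT13 (ENSG00000019505, chromosome 11, 45240301 to 45286319), an atypical member whose C2 domains lack the calcium-binding residues, had 17.7, 20.8 and 17.4 with CDO1 and 52.0, 47.8 and 53.2 in mock. It fell 2.73-fold (log2 fold change -1.40 ± 0.22 SE; limma, adjusted p = 6.28e-05), with the CDO1 values from 18 or 19 reads per library. The authors' deposited table gives SYT13 a smaller log2 fold change of -0.89.

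SYT7 (ENSG00000011347, chromosome 11, 61515313 to 61581148), a slow high-affinity sensor that also serves lysosome exocytosis in membrane repair, was the most abundant synaptotagmin in every library. It had 1695, 1653 and 1810 normalised counts with CDO1 against 2115, 2234 and 1966 in mock. Its change was small, with a log2 fold change of -0.29 ± 0.06 (SE; limma, adjusted p = 0.00102), and no CDO1 library reached the lowest mock library. SYT17 (ENSG00000103528, chromosome 16, 19167971 to 19268334), a member without a transmembrane segment, had 120.3, 119 and 134 with CDO1 against 164, 161 and 144 in mock. Its log2 fold change of -0.32 ± 0.12 (SE) passed narrowly in limma (adjusted p = 0.0487), and the call ended in 10 of 17 alternative fits, where its lowest adjusted p was 0.0126 and its highest 0.177. In the authors' deposited table its adjusted p is 0.144.

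SYT12 (ENSG00000173227, chromosome 11, 67006778 to 67050863), whose C2 domains do not bind calcium, had 257, 278 and 275 with CDO1 and 268, 240 and 287 in mock. Its log2 fold change of 0.03 had a 95% interval of -0.16 to 0.22 (limma, adjusted p = 0.865). SYT8 (ENSG00000149043, chromosome 11, 1828307 to 1837521), another member described as insensitive to calcium, had 161, 150.0 and 132 with CDO1 and 141, 163 and 147 in mock. Its interval ran from -0.27 to 0.22 (adjusted p = 0.905), so changes of the size seen for SYT1, SYT3 and SYT13 lie outside the intervals of both genes.

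Set on a scale per length (normalised counts per kb of exon), the 7 synaptotagmin genes summed to 503 ± 12.4 with CDO1 and 658 ± 22.2 in mock (SD, n = 3 each). SYT7 made up 59.9% ± 2.0 of that sum with CDO1 and 56.1% ± 1.71 in mock (SD, n = 3 each), with its lowest CDO1 share, 58.3%, just above its highest mock share, 57.6%. SYT1 made up 6.03% ± 0.865 with CDO1 and 13.96% ± 1.02 in mock (SD, n = 3 each). SYT1 thus held a smaller part of the synaptotagmin transcripts with CDO1, a ratio within libraries that no scaling between them alters. The shares of SYT8 (17.1% with CDO1 and 13.3% in mock) and SYT12 (11.1% and 8.32%) were larger in every CDO1 library, while their own levels had no call.

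Of the 5 pore-forming genes, CACNA1B, CACNA1H, CACNA1A and CACNA1G fell and CACNA1D did not pass. CACNA1H (ENSG00000196557, chromosome 16, 1153121 to 1221772), a T-type pore that opens at small depolarisations, had 395, 382 and 366 normalised counts with CDO1, against 1080 in mock replicate 1, 1344 in mock replicate 2 and 914 in mock replicate 3. The mock libraries were spread more widely than the CDO1 libraries, and all lay above them. The log2 fold change was -1.53 ± 0.10 (SE; limma, adjusted p = 4.18e-10). CACNA1G (ENSG00000006283, chromosome 17, 50561068 to 50627474), the pore of another T-type channel, had 42.4, 33.9 and 45.0025 with CDO1 against 72.6, 92.7 and 96.2 in mock. It fell 2.15-fold (log2 fold change -1.09 ± 0.18 SE; limma, adjusted p = 0.000118), with no overlap of groups.

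CACNA1B (ENSG00000148408, chromosome 9, 137877789 to 138124624), the N-type pore that feeds transmitter release, had 24.7, 15.3 and 20.2 with CDO1 against 82.4, 94.6 and 82.6 in mock. At a log2 fold change of -2.08 ± 0.21 (SE; limma, adjusted p = 2.49e-07), from 14 to 25 reads per CDO1 library, it had the largest change of the 19 genes on that scale. CACNA1A (ENSG00000141837, chromosome 19, 13206442 to 13633025), the P/Q-type pore, was the scarcest member, with 17.7, 10.9 and 11.9 with CDO1 against 23.3, 41.0 and 35.1 in mock. The closest libraries, CDO1 replicate 1 and mock replicate 1, were 17.7 and 23.3. Its log2 fold change was -1.22 with a 95% interval of -1.83 to -0.61 (limma, adjusted p = 0.00386), against -0.64 for CACNA1A in the authors' deposited table. CACNA1D (ENSG00000157388, chromosome 3, 53328963 to 53813733), an L-type pore of endocrine and pacemaker cells, had 77.9, 82.1 and 71.6 with CDO1 and 82.4, 84.9 and 79.2 in mock, and the groups overlapped. Its 95% interval was -0.39 to 0.21 (limma, adjusted p = 0.717). It shares 12.2% of its exon length with CHDH on the opposite strand, a gene at a mean of 869.9 normalised counts that fell by 0.21 on the log2 scale (limma, adjusted p = 0.0278), and whether reads of the strands were told apart is not given in the sources used here. In all, 13 of the 19 genes share some exon bases with another annotated gene, and 5 with one that has a row in the table.

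**Figure D2:**
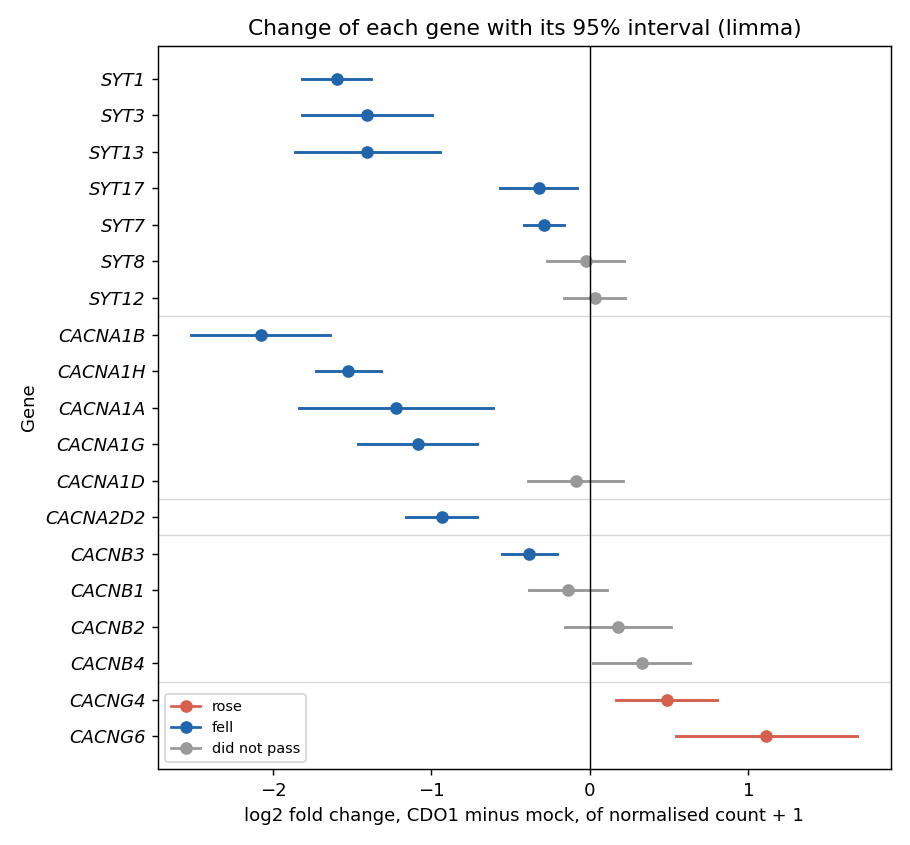
Each gene's change, CDO1 minus mock, in log2 of normalised count plus 1, with its 95% interval from limma; blue fell, red rose and grey did not pass an adjusted p of 0.05. Pore-forming genes reach from -2.08 for CACNA1B to -0.09 for CACNA1D, and the gamma subunit genes CACNG4 and CACNG6 lie at 0.48 and 1.11.

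Per kb of exon, the pore-forming genes summed to 64.0, 60.2 and 59.2 normalised counts in CDO1 libraries and to 158, 195 and 141 in mock libraries. CACNA1H made up most of both sums, 76.0% ± 1.17 with CDO1 and 82.1% ± 2.71 in mock (SD, n = 3 each). CACNA1D made up 10.995% ± 0.760 with CDO1 and 4.41% ± 0.566 in mock (SD, n = 3 each). The L-type share was larger with CDO1 in every library, with 10.5% as its lowest CDO1 value and 4.89% as its highest mock value, while its own level had no call. In mock libraries CACNA1H came after SYT7 and CACNB3 in the order per kb, at 136 ± 26.4, above SYT1 at 91.7 ± 4.16 (SD, n = 3 each). With CDO1 it stood at 46.5 ± 1.77, below SYT8 and SYT12 as well and in the range of CACNB1 at 49.0 ± 4.97 (SD, n = 3 each), and SYT1 at 30.4 ± 4.92 overlapped CACNG4 and CACNA2D2.

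**Figure D3:**
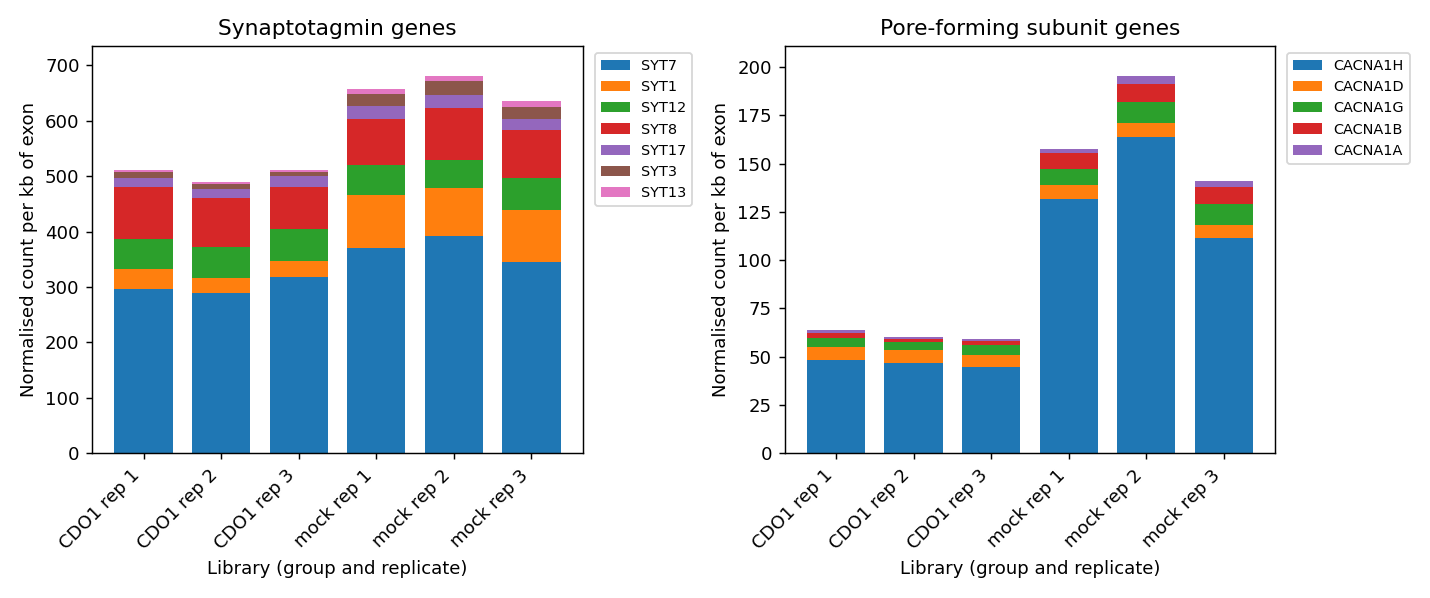
Normalised counts per kb of exon in each library, stacked by gene, for the 7 synaptotagmins (left) and the 5 pore-forming subunits (right), with CDO1 libraries to the left of mock libraries in each panel. The pore-forming sum is 59.2 to 64.0 in CDO1 libraries and 141 to 195 in mock libraries, most of it CACNA1H.

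Among the auxiliary subunits, CACNA2D2 and CACNB3 fell and both gamma subunit genes rose. CACNA2D2 (ENSG00000007402, chromosome 3, 50362799 to 50504244), an alpha2delta subunit that carries pores to the cell surface, had 162, 164 and 132 with CDO1 against 273, 296 and 308 in mock. It fell 1.91-fold (log2 fold change -0.94 ± 0.11 SE; limma, adjusted p = 1.16e-06). CACNB3 (ENSG00000167535, chromosome 12, 48813794 to 48828941), the main beta subunit here, had 494, 551 and 479 with CDO1 against 647, 744 and 601 in mock. Its groups lay apart but its change was smaller, -0.38 ± 0.08 (SE) on the log2 scale (limma, adjusted p = 0.00161). Per kb, CACNB3 made up 71.2% of the beta subunit genes with CDO1 and 75.5% in mock.

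The other beta subunit genes did not pass. CACNB1 (ENSG00000067191), a beta subunit best known from skeletal muscle, had 181, 222 and 200.2 with CDO1 and 258, 225 and 186 in mock (limma, adjusted p = 0.455). CACNB2 (ENSG00000165995), the cardiac beta subunit, had 72.0, 65.7 and 64.3 with CDO1 and 54.7, 61.4 and 62.2 in mock (adjusted p = 0.483 in limma). CACNB4 (ENSG00000182389), a neuronal beta subunit, had 102, 95.2 and 113 with CDO1 and 82.4, 70.2 and 95.03 in mock (adjusted p = 0.122 in limma). For CACNB2 and CACNB4 the groups did not overlap although neither passed, and absence of overlap alone was common, at 37.1% of all genes tested. Their 95% intervals, -0.16 to 0.51 and 0.02 to 0.63 on the log2 scale, leave room for modestly higher levels with CDO1.

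CACNG4 (ENSG00000075461, chromosome 17, 66964910 to 67033398), a gamma protein that also regulates AMPA receptors in neurons, had 113, 92.0 and 100.1 with CDO1 against 79.8, 60.5 and 78.1 in mock. It rose 1.40-fold (log2 fold change 0.48 ± 0.15 SE; limma, adjusted p = 0.0253). The call ended in 5 of 17 alternative fits, and in the authors' deposited table its adjusted p is 0.0810. CACNG6 (ENSG00000130433, chromosome 19, 53992288 to 54012669), a relative of the skeletal muscle gamma subunit, had 28.6, 47.1 and 41.3 with CDO1 against 12.5, 17.6 and 22.6 in mock. It rose 2.22-fold, with a wide 95% interval of 0.54 to 1.69 on the log2 scale (limma, adjusted p = 0.00477). The authors' deposited table gives CACNG6 0.64 on the log2 scale.

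The threshold of 20 fell among genes of like level. Just inside it were CACNA1A, CACNG6 and SYT13, with means over the 6 libraries of 23.3, 28.3 and 34.8. Just outside were CACNA2D1, CACNA1I and SYT5, with means of 17.4, 16.1 and 13.0. Of the 12 family genes with a row and a mean under 20, 10 were tested, 3 fell and 0 rose in limma, beside 12.7% and 11.3% of all genes tested. They were SYT5 (log2 fold change -1.06, adjusted p = 0.0301 in limma), CACNA2D4 (-1.23, adjusted p = 0.0311) and SYT11 (-1.56, adjusted p = 0.0249), each from few reads. In the authors' deposited table none of the 3 passed, with log2 fold changes of -0.44 for SYT5, -0.39 for CACNA2D4 and -0.36 for SYT11.

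GC content of the transcript moves with the fold change across genes here. Spearman's rho was -0.22 over the 12250 protein-coding genes, a description over genes that share libraries. GC content was 41.6% to 66.1% (median 58.8%) in the 11 genes that fell. It was 35.5% to 66.3% (median 50.4%) in the 6 that did not pass, and 57.0% and 61.1% in the 2 that rose. The median over those protein-coding genes was 48.7%, below that of the members that fell. SYT1, at 41.6%, and CACNA1H, at 66.1%, fell by like amounts. All 13 calls were also made after the trend with GC content was taken out of each library. That fit called more genes over all, 3479 lower and 2827 higher of 21564. The main fit called 2762 lower and 2467 higher of 21775. The part of GC content in the calls was not tested. Flanking genes were mixed: of 21 distinct nearest protein-coding genes on either side of the members that fell, 5 fell, 2 rose and 14 did not pass. Beside them, 12.7% of all genes tested were lower and 11.3% higher, and 18.8% and 18.1% of the protein-coding genes that reach a mean of 20. SYT3 lay between LRRC4B (log2 fold change -1.75, adjusted p = 9.32e-05 in limma) and C19orf81 (-1.02, adjusted p = 0.00356), which both fell, with -0.95 and -0.61 in the authors' deposited table. CACNG8, 2073 bases from CACNG6, had a log2 fold change of 0.77 and did not pass (adjusted p = 0.236 in limma). OSCAR, 81999 bases away on the other side of CACNG6, rose (log2 fold change 0.95, adjusted p = 0.00414 in limma). Of the genes flanking the members that rose, 1 fell, 1 rose and 2 did not pass.

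The lists of exocytosis genes around the synaptotagmins held genes that fell and genes that rose. Their counts stand beside 12.7% lower and 11.3% higher of all genes tested. Among protein-coding genes that reach a mean of 20, a level most of these list genes reach, the shares were 18.8% and 18.1%. Of 28 C2-domain relatives and priming factors tested, 7 fell and 6 rose, with a median log2 fold change of -0.08. DOC2B, a calcium-binding C2 protein of secretion, stood at 101.4 ± 11.2 with CDO1 against 356 ± 20.8 normalised counts in mock (SD, n = 3 each), and fell by 1.81 on the log2 scale (limma, adjusted p = 1.60e-10). UNC13A, which primes vesicles for fusion, fell 2.24-fold, its relative BAIAP3 1.81-fold and CADPS, which primes dense-core vesicles, 1.63-fold. Of 45 SNAREs and fusion factors, 11 rose and 6 fell, with a median of 0.06. STXBP4 fell 1.39-fold, while STX3, the apical syntaxin of epithelia, rose 1.37-fold and the plasma membrane syntaxin STX4 1.27-fold. Of 24 vesicle proteins and RAB3 or RAB27 genes, 12 fell and 2 rose, with a median of -0.27. SYNGR1 fell 2.99-fold, SYN2 2.22-fold and SCAMP5 2.19-fold, all proteins of synaptic vesicles, and RAB27B, a GTPase of secretory granules, rose 1.53-fold.

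Among other channels and calcium handlers, voltage-gated and related sodium and potassium channel genes had 11 of 33 that fell and 2 that rose. Over all genes tested, 12.7% fell and 11.3% rose, and over the protein-coding genes that reach a mean of 20, 18.8% and 18.1%. The median log2 fold change of the list was -0.56, against 0.00 over all genes tested. Only 16 of its genes averaged at least 20 with CDO1 and 18 in mock, so the median takes in many scarce genes. HCN4, a pacemaker channel, fell 4.25-fold, at 23.1 ± 7.45 with CDO1 and 98.0 ± 10.3 in mock (SD, n = 3 each). The calcium-activated channel KCNN4 fell 3.23-fold and the potassium channel KCNH3 3.17-fold. Of 39 genes for other calcium entry, release and pumps, 7 fell and 7 rose (median -0.02): the endoplasmic reticulum pump ATP2A3 fell 3.33-fold, the ryanodine receptor RYR1 2.93-fold and the plasma membrane pump ATP2B4 1.44-fold, and the inositol trisphosphate receptor ITPR2 rose 1.48-fold. Of 18 modulators of calcium channels, 6 rose and 4 fell (median -0.18). GEM, a small GTPase that inhibits voltage-gated calcium channels, rose 1.44-fold and the scaffold AHNAK 1.41-fold, while the calcium sensor NCS1 fell 1.24-fold and the kinase gene CAMK2D 1.22-fold. Each gene named in these lists passed in limma at an adjusted p of 0.00292 or less, and its groups did not overlap.

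**Figure D4:**
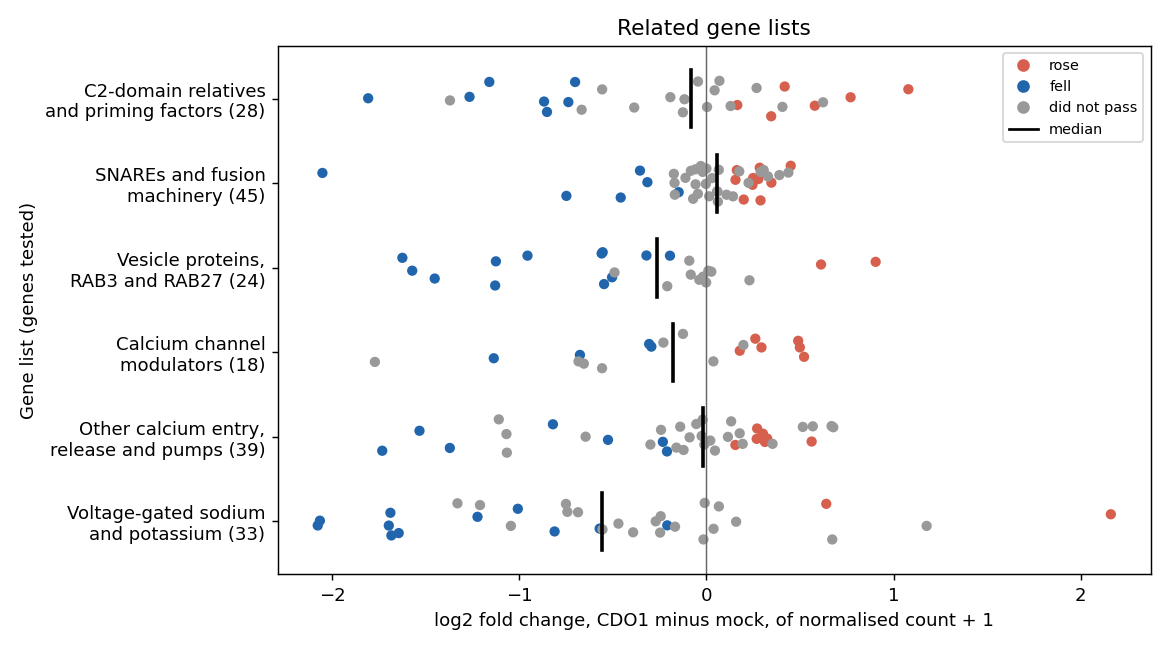
Points are genes of 6 related lists (number tested in parentheses), placed by log2 fold change, CDO1 minus mock; blue points fell, red rose and grey did not pass, with a black bar at each median. It lies at -0.56 for voltage-gated sodium and potassium channels, -0.27 for vesicle proteins and 0.06 for SNAREs.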

How the data were processed

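The submitters' processing notes name STAR 2.5.1b, DESeq2 1.10.1 and the build GRCh38. How reads were counted, with which strand setting and annotation, is not given in the sources used here. In the deposited table the authors give a signal per gene and library, the gene's count over a size factor (0.884 to 1.12). Dividing each value by the worth of a single read returned whole numbers for 100% of values, to within 0.001. The log2 fold change, p-value and adjusted p-value columns are the authors' deposited comparison, per the file headers.

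Of 27134 identifiers, 26577 matched a gene symbol, and biotype, position, exon length (basic transcripts) and GC content (longest transcript) came from GENCODE release 29 on GRCh38, which may differ from the authors' annotation and holds 26742. Normalised counts were raised by 1, taken to log2 and tested with limma 3.58.1 (trend) in every gene whose mean reached 1, with Benjamini-Hochberg adjustment at 0.05; this scale understates changes of scarce genes. Fold values are ratios of mean normalised counts. edgeR 4.0.16 and DESeq2 1.42.0 ran on the recovered reads, in R 4.3.3. Other alternatives changed the pseudocount, filter, scaling, GC trend (lowess, span 0.3) and libraries, and added the replicate number as a block. The limma and edgeR fits were checked on simulated data.

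All 19 members are named, with the 3 family genes nearest below the threshold and up to 4 genes of smallest p per list; a few genes that this rule names are not reported here. Genes outside that rule (SYT11, CACNA2D4, CHDH, CACNG8, OSCAR, LRRC4B, C19orf81 and the cell type markers) were named after their values were seen. Members, lists and tests were chosen with earlier results of these data known. Intervals cover the spread between libraries; reads carry no molecular identifiers.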

Additional observations from a re-analysis of the deposited data

How the results depend on the processing

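Of the 13 calls among the 19 genes, 11 (10 lower, 1 higher in CDO1) were made under all 17 alternative fits, and 2, SYT17 and CACNG4, were lost in some; the cause was not tested. Leaving out 1 library at a time gave 10 to 11 genes lower and 1 to 2 higher, and over all genes 2093 to 2863 lower and 1752 to 2584 higher. CACNG4 lost its call without CDO1 replicate 1 (adjusted p = 0.129), CDO1 replicate 3 (0.0653) or mock replicate 2 (0.113), all in limma. Without mock replicate 1, the library with CDO1 reads, SYT17 alone was lost (adjusted p = 0.177 in limma). DESeq2 and the authors' deposited table each gave 10 lower and 1 higher. Requiring a log2 change of 1 or more either way left 7 lower and 1 higher, and 985 lower and 174 higher over all genes, by construction. Among genes that did not pass, the SYT8 log2 fold change turned positive with the GC trend removed (0.12) and ran from -0.0896 to 0.0501 with 1 library left out (0.0501 without CDO1 replicate 3, 0.03 without mock replicate 2). The SYT12 log2 fold change ran from -0.0400 (without mock replicate 2) to 0.0896 (without mock replicate 3). With the replicate block, 10 members were lower and 2 higher (SYT17 at an adjusted p of 0.05002 in limma), and 3073 genes lower and 2845 higher over all. Correlations of same-numbered libraries were 0.0292, 0.147 and 0.0414, and those of differently numbered libraries ran from -0.0948 to 0.0617. Deviations from the means of so few libraries cannot decide whether the numbers pair the samples. The log2 fold changes in the authors' deposited table were over 1.5 times smaller for CACNA1A (-0.64), CACNG6 (0.64) and SYT13 (-0.89), with the calls kept. For CDO1 itself that table gives a log2 fold change of 0.09, against 9.18 in limma. Its adjusted p for CDO1 is 0.416 in the authors' deposited comparison. Fold changes there can thus be far smaller than the counts show, and the cause was not tested. No scaling moved the median log2 fold change of all genes by over 0.1. Depth limits CACNA1A, CACNA1B and SYT13, with 10 to 25 reads per CDO1 library, and CACNG6, with 14 to 20 reads per mock library.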
